A study of Mus musculus with 20 samples.

Results

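The diet by *Cideb* knockout interaction asks, gene by gene, whether the change that came with loss of *Cideb* in hepatocytes had a different size or direction on 2 diets that produce fatty liver. It was computed from all 20 of the 20 livers of the series as the KO effect on CDA-HFD minus the KO effect on WD, where a KO effect is the log2 fold change of KO over WT livers on the same diet. A positive interaction means that the KO effect was higher on CDA-HFD than on WD, and a negative one that it was lower. A member of the result is a gene whose interaction passed a Benjamini-Hochberg adjusted p of 0.05 in edgeR's quasi-likelihood F test.

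All mice carried *Cideb* fl/fl alleles on a C57BL/6 background. The 4 groups of 5 livers were AAV-TBG-GFP on WD (WT WD), AAV-TBG-Cre on WD (KO WD), AAV-TBG-GFP on CDA-HFD (WT CDA-HFD) and AAV-TBG-Cre on CDA-HFD (KO CDA-HFD). WD is a western diet rich in sugar, fat and cholesterol, given with sugar water. CDA-HFD is a high-fat diet that lacks choline and supplies amino acids in defined form. The study's methods describe it as deficient in methionine as well. The study's methods place the vector at 6 weeks of age, followed by 24 weeks of WD or 12 weeks of CDA-HFD, whereas the labels give 3 months for both diets, so diet and duration cannot be told apart in this contrast. The TBG promoter is active in hepatocytes, so other liver cells kept the gene, and no liver without a vector or on a normal diet enters the contrast. Reads counted on genes numbered 11697049 to 16827147 per liver, and values are given as TMM-scaled CPM (reads of a gene relative to all counted reads of its liver). In whole-liver RNA, fewer cells of a type and less RNA per cell cannot be told apart.

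CIDEB is one of the CIDE proteins, which sit at contacts between lipid droplets and help small droplets pass their lipid to larger ones. In hepatocytes it is also known for a part in loading lipid onto very-low-density lipoprotein. Choline is needed to make phosphatidylcholine, the main phospholipid of membranes, lipoproteins and the droplet surface, which is why a diet without it makes the liver store fat and become inflamed and scarred.

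*Cideb* itself (chr14:55754050-55758458 in GRCm38, minus strand) was read at 4.78, 6.54, 7.57, 5.16 and 6.28 CPM in WT WD livers and at 2.22, 3.60, 2.76, 3.83 and 2.85 CPM in WT CDA-HFD livers. KO livers held 0, 0.389, 0, 0.152 and 0.235 CPM on WD and 0.209, 0, 0.399, 0.147 and 0.060 CPM on CDA-HFD. Every KO liver, liver 5 on CDA-HFD included, was below every WT liver of its diet. The interaction of *Cideb* was 0.96 ± 0.80 (log2, SE; 5 livers a group) with an adjusted p of 0.592, and its 95% interval ran from -0.71 to 2.63. *Nop9*, an RNA-binding protein gene whose annotation overlaps the end of *Cideb* on the opposite strand, had an interaction of 0.22 ± 0.13 with an adjusted p of 0.454. Whether the reads were counted by strand is not stated, so reads of this pair in their overlap cannot be assigned.

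Of 17804 genes tested, 99 passed. The KO effect was higher on CDA-HFD for 59 of them (0.331% of genes tested) and lower for 40 (0.225%). In the same model, 2388 genes were higher in KO than WT livers on CDA-HFD (13.4%) and 1782 were lower (10%), while on WD 2 were higher (0.0112%) and 24 were lower (0.135%). The interaction carries the error of all 4 groups. Its median SE was 0.26 on the log2 scale, against 0.182 for the KO effect on CDA-HFD and 0.186 for that on WD, and the median half-width of its 95% interval was 0.543. An unadjusted p under 0.05 was reached by 2736 genes. That interval is not adjusted over genes, so a call required a difference larger than this half-width for a typical gene.

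In most members the estimated KO effects on the 2 diets had opposite signs. Among the 59 genes with a higher interaction, the KO effect on CDA-HFD was above 0 in 59 and the KO effect on WD was below 0 in 49, with medians of 0.77 on CDA-HFD and -0.18 on WD. In 43 of these 59 genes the lowest group mean was that of WT CDA-HFD. Among the 40 genes with a lower interaction, the KO effect was below 0 on CDA-HFD in 40 and above 0 on WD in 38, with medians of -0.62 and 0.19. WT CDA-HFD had the highest mean in 37 of these 40. The signs are partly set by the selection, because a large difference between 2 effects is most easily reached when they lie on either side of 0. The medians on WD were close in size to 0.186, the median SE of the KO effect on WD over all genes tested. On WD 26 genes passed in all, so the sign there is uncertain for most single members.

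Across the 13701 genes whose log2 CPM averaged 1 or more, the KO effects on the 2 diets, which rest on separate livers, had a Pearson correlation of 0.45 over genes. Of the 2388 genes higher in KO livers on CDA-HFD, 1830 (76.6%) were also above 0 on WD, with a median effect of 0.57 on CDA-HFD and 0.11 on WD. For the 1782 lower genes, 1442 (80.9%) were below 0 on WD, with medians of -0.80 and -0.20. Effects chosen for passing on CDA-HFD are expected to look smaller on WD through the choice alone. The 99 members were chosen for a difference between the 2 effects, so their distance from equal effects follows from the choice. In 10 higher and 2 lower members both KO effects had the direction of the interaction.

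**Figure D1:**
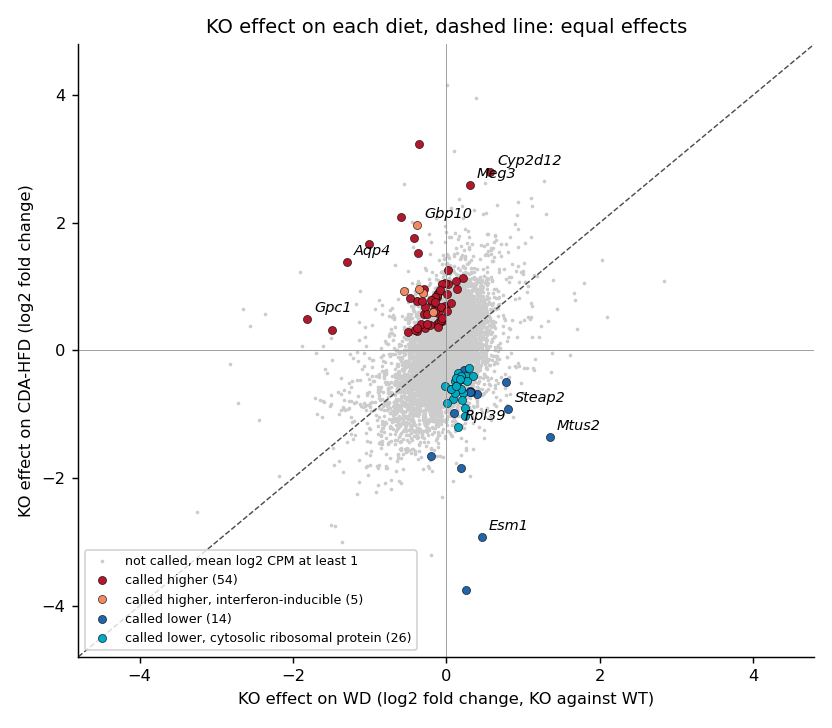
KO effect on WD (x axis) against KO effect on CDA-HFD (y axis), both as log2 fold changes of KO over WT with 5 livers a group, for genes whose log2 CPM averaged 1 or more and for all genes called in the interaction. The dashed line marks equal effects; the 59 genes called higher lie above it, mostly left of 0, and the 40 called lower lie below it, where 26 cytosolic ribosomal protein genes form a group under 0 and mostly to the right of 0.

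KO CDA-HFD liver 5 stood apart from the other 4 livers of its group. On the first principal component of the CDA-HFD livers, which held 59.9% of their variance, it lay at -41.7, within the WT range of -64.5 to -7.76 and away from the other KO livers at 43.3 to 67.0. Its *Cideb* level was that of a KO liver. For 68 of the 99 members its value was nearer the mean of the other KO livers than that of the WT livers. The members were called with this liver included, which favors such nearness, so the count does not place the liver. Without it, 2138 of 17995 genes passed, 1110 higher (6.17%) and 1028 lower (5.71%), and these included all 99 members. Leaving out any other single liver left between 35 and 105 calls. Results are therefore given with and without this liver where it matters.

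The largest single group among the members was the protein part of the cytosolic ribosome, the machine that translates messenger RNA. Ribosomal protein genes are transcribed at high and coordinated rates, and their mRNAs typically begin with a run of pyrimidines, the 5′ terminal oligopyrimidine tract, through which their translation responds to nutrient signaling. Of 81 such genes tested, 26 passed, all with a lower interaction (0.225% of all genes did), and they made up 26 of the 40 lower members. An interaction below 0 was found for 80 of the 81, with a median of -0.58 against 0.02 over all genes tested. The median KO effect of the 81 was 0.14 on WD and -0.43 on CDA-HFD, where 54 of them fell and none rose. Without KO CDA-HFD liver 5, 64 of the 81 passed with a lower interaction (5.71% of all genes did) and the median was -0.63. These genes were grouped after the members were known.

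Both subunits took part. For the large subunit, 12 of 49 genes passed and 49 of 49 lay below 0 with a median interaction of -0.57, and for the small subunit, 14 of 32 passed and 31 of 32 lay below 0 with a median of -0.62. The KO effect on WD was above 0 for 46 large-subunit and 28 small-subunit genes, and the KO effect on CDA-HFD was below 0 for 47 and 31. The gene above 0 was *Rps4l*, at 0.27 with an adjusted p of 0.726, and *Rpl7l1* lay near 0, at -0.04 with an adjusted p of 0.897. Both are paralogs of standard subunit genes, but another paralog, *Rpl22l1*, was at -0.86 with an adjusted p of 0.105.

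The starts of the called ribosomal protein genes are shown because this family is known for pyrimidine-rich starts, and the windows show which of these genes hold such a run near the annotated start. Each line gives 30 bases in the sense of the mRNA, 15 before and 15 from the first annotated RefSeq start in GRCm38.p6. Runs of at least 6 C or T are in capitals. The lines are for the 8 called genes with the lowest interaction that have an entry. The windows lie at chrX:37085208-37085237 (minus strand, *Rpl39*), chr3:90213634-90213663 (minus, *Rps27*), chr11:68901551-68901580 (plus, *Rpl26*), chr2:32961697-32961726 (plus, *Rpl12*), chr10:23787195-23787224 (minus, *Rps12*), chr7:118116133-118116162 (minus, *Rps15a*), chr14:24490663-24490692 (plus, *Rps24*) and chr3:86142654-86142683 (minus, *Rps3a1*).
Rpl39: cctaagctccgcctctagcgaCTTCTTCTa
Rps27: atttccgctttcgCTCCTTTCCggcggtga
Rpl26: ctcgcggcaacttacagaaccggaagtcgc
Rpl12: ggcggagcaggatccgTCTTTTCggctttc
Rps12: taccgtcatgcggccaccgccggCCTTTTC
Rps15a: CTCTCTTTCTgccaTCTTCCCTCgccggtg
Rps24: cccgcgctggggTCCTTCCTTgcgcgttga
Rps3a1: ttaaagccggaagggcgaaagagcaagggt
A run of this kind was present in the window of 12 of the 18 called ribosomal protein genes with an entry (66.7%), of 22 of the 43 uncalled ones (51.2%) and of 3730 of 12987 tested genes (28.7%). Only the strand in the sense of the mRNA was searched. The window of *Rpl26* and that of *Rps3a1* held no run, which says only that these letters are not within 15 bases of the first annotated start.

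*Rpl39*, a small protein of the exit tunnel in the large subunit (chrX:37082520-37085402), had the lowest interaction of the family. It was measured at 26.6, 23.0, 21.9, 18.2 and 17.4 CPM in WT WD livers and at 18.9, 21.9, 30.2, 26.1 and 21.8 CPM in KO WD livers. On CDA-HFD the levels were 48.7, 39.3, 49.8, 36.6 and 45.2 CPM in WT livers and 18.5, 17.1, 21.0, 16.2 and 23.0 CPM in KO livers. The WT CDA-HFD livers were all above the other 15 and the remaining 3 groups overlapped. The interaction was -1.35 ± 0.20 with an adjusted p of 0.00378 from edgeR, composed of a KO effect of -1.20 on CDA-HFD and 0.15 on WD.

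*Rps27*, a zinc-finger protein of the small subunit (chr3:90212522-90213651), was measured at 28.8, 28.6, 36.8, 29.0 and 23.8 CPM in WT WD livers and at 25.5, 32.5, 33.7, 47.3 and 34.4 CPM in KO WD livers. On CDA-HFD it was at 34.5, 63.7, 65.3, 46.7 and 59.3 CPM in WT and 27.2, 22.9, 24.2, 36.0 and 22.4 CPM in KO livers. WT CDA-HFD liver 1 lay within the KO range and the other 4 WT livers lay above it. The interaction was -1.26 ± 0.26 (adjusted p = 0.0274), and it passed in 11 of the 20 fits that left out 1 liver.

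The lowest adjusted p of the family belonged to *Rpl26* and *Rpl32*, both of the large subunit, each at 0.00170. *Rpl26* had an interaction of -0.98 ± 0.12, with 33.3 to 42.7 CPM in WT WD, 40.9 to 49.1 in KO WD, 50.2 to 65.9 in WT CDA-HFD and 30.5 to 36.8 in KO CDA-HFD livers. The WT and KO ranges did not overlap on CDA-HFD and overlapped on WD. *Rpl32* had an interaction of -0.80 ± 0.11, and its WT CDA-HFD livers at 55.3 to 70.4 CPM were all above its KO CDA-HFD livers at 39.5 to 44.7 CPM. *Rps27a*, which encodes ubiquitin fused to a small-subunit protein, had an interaction of -1.16 ± 0.17 (adjusted p = 0.00342). *Rplp0*, a protein of the ribosomal stalk that is often used as a reference gene, had the mildest interaction among the 26 at -0.51 ± 0.09 (adjusted p = 0.0172), with 142 to 166, 169 to 176, 205 to 237 and 163 to 187 CPM in WT WD, KO WD, WT CDA-HFD and KO CDA-HFD livers. The groups of *Rplp0* did not overlap on either diet, and KO livers were the higher ones on WD and the lower ones on CDA-HFD. In edgeR its KO effect was 0.15 on WD (adjusted p = 0.492) and -0.36 on CDA-HFD (adjusted p = 0.00188), so the WD effect did not pass.

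The mean log2 CPM over the 81 genes, set to 0 at the WT WD mean, showed the same order per liver. It was 0.13, 0.04, -0.002, -0.15 and -0.02 in WT WD livers, and 0.01, 0.09, 0.22, 0.19 and 0.14 in KO WD livers. In WT CDA-HFD livers it was 0.69, 0.42, 0.57, 0.38 and 0.47, and in KO CDA-HFD livers 0.01, 0.07, 0.07, -0.03 and 0.25. Each WT CDA-HFD liver was above each liver of the other groups, and KO CDA-HFD liver 5 was the highest of its group. In summed level, the 81 genes took 4021 to 4843 CPM in WT WD, 4517 to 5289 in KO WD, 5777 to 7783 in WT CDA-HFD and 4350 to 5692 in KO CDA-HFD livers.

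**Figure D2:**
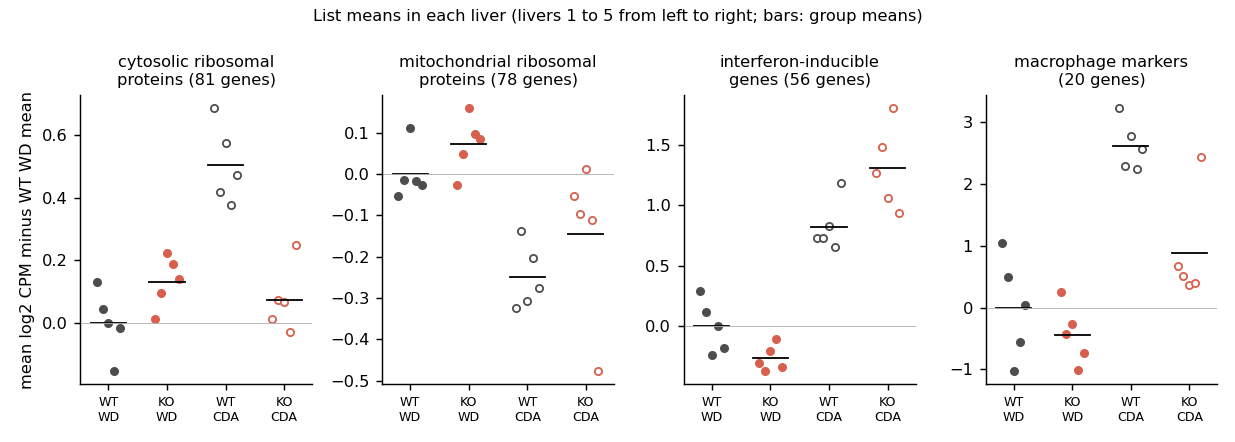
Mean log2 CPM of 4 gene lists in each of the 20 livers, relative to the WT WD mean, with group means as bars. For the 81 cytosolic ribosomal proteins the WT CDA-HFD livers lie at 0.38 to 0.69, above all others; the 78 mitochondrial ribosomal proteins do not show this, and in the macrophage list KO CDA-HFD liver 5 lies at 2.43 with the WT livers.

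Other genes of protein synthesis held fewer members. For the 78 mitochondrial ribosomal proteins, which serve the separate ribosome of the organelle, 0 passed and the median interaction was 0.07, and without KO CDA-HFD liver 5, 2 passed in the higher and 0 in the lower direction. Among 61 genes of translation initiation and elongation factors and their regulators, 1 passed with a lower interaction. This was *Eif3m*, a subunit of the initiation factor that binds the small subunit, at -0.54 ± 0.12 (adjusted p = 0.0475), which passed in 2 of the 20 fits without 1 liver. The list median was -0.07, with 38 of the 61 below 0. Relative to WT WD, the list mean was 0.06 to 0.14 in WT CDA-HFD livers and -0.02 to 0.03 in KO CDA-HFD livers. These 2 groups did not overlap, as in the ribosomal list, but lay closer together. Without liver 5, 4 of the 61 passed in the lower and 2 in the higher direction. Over all genes, 5.71% and 6.17% did. *Rack1*, a scaffold protein bound to the small subunit that was singled out after its value was seen, was also a member at -0.63 ± 0.12 (adjusted p = 0.0236).

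Properties of the transcripts and of the libraries were set beside the ribosomal result. The transcripts of these genes are short, with a median of 637 bases against 1392.5 bases over tested genes with a length, and their GC content was 51.9% against 50.4%. Among 4323 other tested genes with a length between 457 and 878 bases, the 10th and 90th percentiles of the family, the median interaction was 0.03, and 15 passed in the higher and 2 in the lower direction. With trends of each liver with transcript length and GC content removed, 28 ribosomal protein genes passed with a lower interaction. Reads that aligned to more than 1 place were not counted, and ribosomal protein genes have many near-identical pseudogenes. The share of such reads was 21.9% to 26.6% in WT CDA-HFD and 18.0% to 22.3% in KO CDA-HFD livers, and 21.9% to 24.04% in WT WD and 22.0% to 28.7% in KO WD livers. Their part in the result was not tested.

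The macrophage, stellate cell and matrix, and cholangiocyte lists had, like the ribosomal list, their highest group mean in WT CDA-HFD livers. Unlike the ribosomal list, they overlapped between WT and KO CDA-HFD livers, but only through the upper end of the KO livers. The KO CDA-HFD medians were 0.51, 0.73 and 0.87 in the macrophage, stellate and cholangiocyte lists. The lowest WT CDA-HFD livers were at 2.23, 1.61 and 1.80. In the macrophage list the highest KO CDA-HFD liver was liver 5, at 2.43. Relative to WT WD, KO CDA-HFD livers reached 2.39 in the stellate cell and matrix list, against 1.61 to 2.42 in WT CDA-HFD livers. In the cholangiocyte list they reached 2.74, against 1.80 to 2.64. The summed level of the 20 macrophage markers was 430 to 1479 CPM in WT WD, 438 to 804 in KO WD, 3137 to 6612 in WT CDA-HFD and 812 to 3806 in KO CDA-HFD livers. All 20 macrophage markers had an interaction below 0, with a median of -1.02, and 0 passed with all livers. Without KO CDA-HFD liver 5, 11 of the 20 passed, where 5.71% of all genes passed with a lower interaction. Of 25 stellate cell and matrix genes 24 were below 0 with a median of -0.57, and of 13 cholangiocyte markers 13 were below 0 with a median of -0.71. Each of these lists had 0 calls with all livers, and 11 and 8 calls without liver 5. In that liver the macrophage list was at the level of WT CDA-HFD livers. Its ribosomal list, at 0.25, was the highest of the KO CDA-HFD livers and below all WT CDA-HFD livers. The ribosomal list was compiled from calls that included this liver. The part of these cells in the ribosomal result was not tested.

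Several further genes with a lower interaction were read at low to moderate levels and had larger changes. *Esm1*, which encodes endocan, a proteoglycan secreted by endothelial cells (chr13:113209659-113218098), was measured at 4.86, 5.68, 3.56, 3.87 and 4.16 CPM in WT WD and at 8.46, 4.67, 4.19, 5.77 and 7.36 CPM in KO WD livers. On CDA-HFD it was at 1.72, 2.47, 1.66, 3.49 and 1.14 CPM in WT and at 0.418, 0.444, 0.266, 0.147 and 0.060 CPM in KO livers. Every KO CDA-HFD liver was below all other 15 livers, and the WD groups overlapped. The interaction was -3.38 ± 0.49 (adjusted p = 0.00342), and all 20 fits without 1 liver kept it past the threshold.

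*Steap2*, a metalloreductase of iron and copper uptake (chr5:5664829-5694578), had KO effects of opposite sign. Its levels were 15.4, 12.04, 11.3, 14.1 and 11.7 CPM in WT WD livers and 26.7, 23.0, 22.3, 24.6 and 15.5 CPM in KO WD livers. On CDA-HFD they were 21.2, 30.8, 21.3, 24.4 and 37.6 CPM in WT and 12.5, 13.5, 12.3, 16.5 and 16.8 CPM in KO livers. KO livers were above WT livers on WD and below them on CDA-HFD, without overlap on either diet. The interaction was -1.72 ± 0.24 (adjusted p = 0.00242), made of a KO effect of 0.80 on WD (adjusted p = 0.0547, not past the threshold) and -0.92 on CDA-HFD (adjusted p = 0.00170).

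*Mtus2*, a microtubule-associated protein gene (chr5:147957320-148316065), was at 1.18, 0.602, 0.454, 0.298 and 0.438 CPM in WT WD and 1.29, 0.778, 1.86, 2.51 and 1.25 CPM in KO WD livers. It was at 8.33, 4.37, 6.90, 4.57 and 6.33 CPM in WT CDA-HFD and 2.09, 2.35, 1.66, 2.50 and 3.24 CPM in KO CDA-HFD livers. The WT CDA-HFD livers were above all others. The interaction was -2.71 ± 0.46 (adjusted p = 0.0109).

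*Qpct*, the enzyme that forms N-terminal pyroglutamate on peptides (chr17:79051906-79090378), was at 4.78, 5.76, 4.84, 5.26 and 4.16 CPM in WT WD livers and 7.91, 9.10, 11.3, 7.29 and 6.81 CPM in KO WD livers. On CDA-HFD WT livers had 13.8, 10.4, 17.3, 13.2 and 11.0 CPM and KO livers 8.22, 11.3, 6.58, 8.60 and 12.1 CPM. KO livers were above all WT livers on WD and overlapped them on CDA-HFD, where the KO effect was -0.49 with an adjusted p of 0.0474. The interaction was -1.26 ± 0.25 (adjusted p = 0.0269).

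The remaining named genes with a lower interaction were *Nrp2*, a receptor for semaphorins and vascular growth factors (-0.94), *Pcdh17*, a protocadherin (-0.98), *Scarna13*, a small Cajal body RNA (-0.96), *Pfdn4*, a prefoldin subunit that helps fold actin and tubulin (-1.08), and the noncoding *Gt(ROSA)26Sor* (-1.09). Their adjusted p values lay between 0.0149 and 0.0499. In each of these 5, KO livers were below all WT livers on CDA-HFD and overlapped them on WD. *Pcdh17*, *Pfdn4* and *Gt(ROSA)26Sor* passed in 4, 3 and 4 of the 20 fits without 1 liver. Below the expression limit of the naming rule, *Cxcl5*, a chemokine that attracts neutrophils and was singled out after its value was seen, had the lowest interaction of all members at -4.01 ± 0.75 (adjusted p = 0.0176), with group means of 0.297, 0.375, 2.98 and 0.213 CPM in WT WD, KO WD, WT CDA-HFD and KO CDA-HFD livers.

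**Figure D3:**
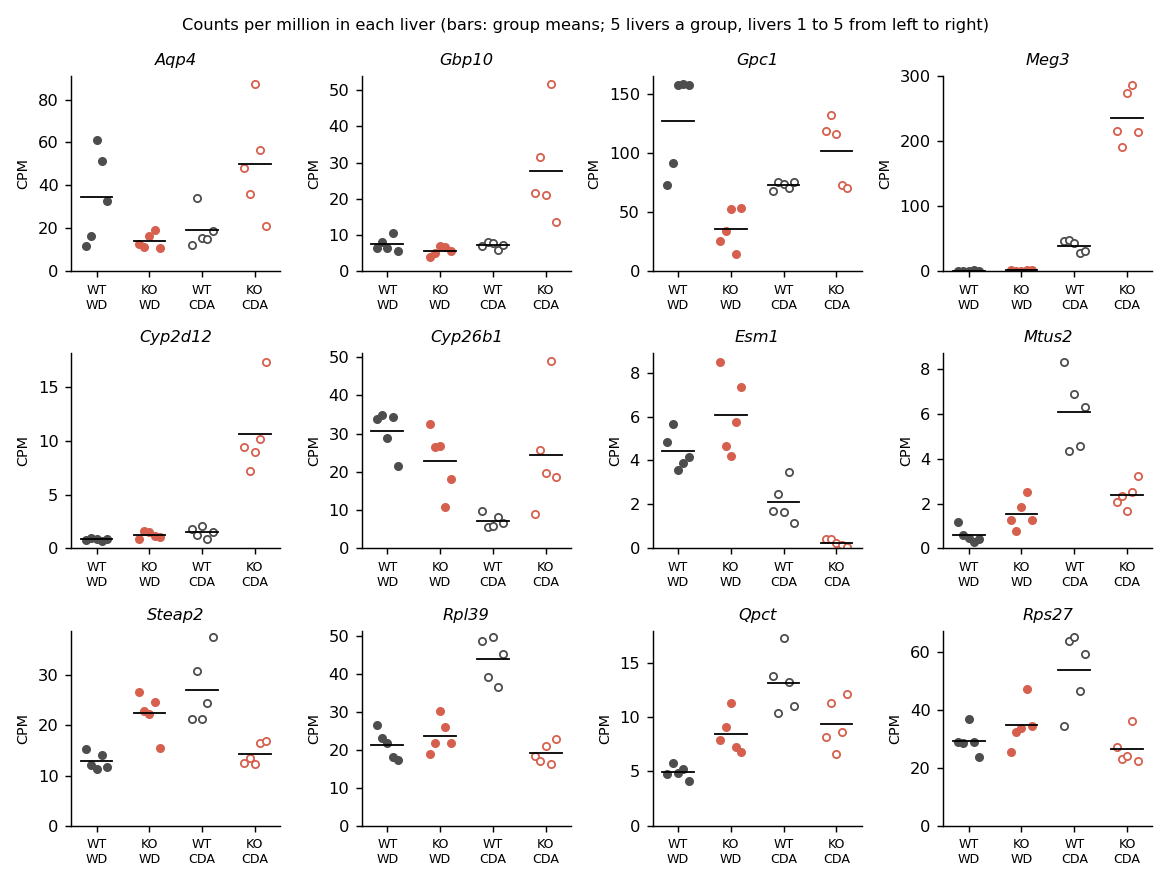
CPM in each liver (y axis from 0) of the 6 named genes with the largest and the 6 with the smallest interaction, by group, with group means as bars. In *Meg3* and *Cyp2d12* the KO CDA-HFD livers lie above all others, in *Gpc1* the KO WD livers lie below all others, in *Esm1* the KO CDA-HFD livers lie lowest, and in *Steap2* the order of WT and KO turns over between the diets.

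Among the genes with a higher interaction, interferon-inducible genes held the most members of the lists examined. Interferons act through receptors of the cell surface and induce antiviral effectors, guanylate-binding proteins and feedback inhibitors in hepatocytes as well as immune cells. Of 56 such genes, grouped after the members were known, 5 passed with a higher interaction (0.331% of all genes did) and 54 were above 0, with a median of 0.73 against 0.02 over all genes. The median KO effect was -0.29 on WD, where 0 passed, and 0.55 on CDA-HFD, where 28 rose and 1 fell. Without KO CDA-HFD liver 5, 27 passed with a higher interaction (6.17% of all genes did) and the median was 0.83. The other 19 fits without 1 liver gave 3 to 9 calls.

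*Gbp10*, a guanylate-binding protein (chr5:105215699-105239533), was measured at 6.50, 8.17, 6.36, 10.5 and 5.62 CPM in WT WD livers and at 3.96, 4.98, 6.99, 6.76 and 5.56 CPM in KO WD livers. On CDA-HFD it was at 6.86, 8.04, 7.79, 5.77 and 7.09 CPM in WT and at 21.5, 31.4, 21.0, 51.6 and 13.4 CPM in KO livers. All 5 KO CDA-HFD livers were above the other 15, with liver 5 the lowest of them, and the remaining groups overlapped. The interaction was 2.35 ± 0.39 (adjusted p = 0.00958). Guanylate-binding proteins are close paralogs, so reads may be shared between them.

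Its paralog *Gbp6* had an interaction of 1.49 ± 0.27 (adjusted p = 0.0149), and its groups did not overlap on either diet. KO livers held 4.43 to 6.15 CPM against 7.39 to 9.17 in WT livers on WD, and 19.1 to 43.5 CPM against 11.8 to 16.8 on CDA-HFD. *Ifi27*, an interferon-induced mitochondrial membrane protein, had an interaction of 1.20 ± 0.20 (adjusted p = 0.00785), with 59.1 to 81.9, 46.7 to 70.1, 60.5 to 91.0 and 100 to 154 CPM in WT WD, KO WD, WT CDA-HFD and KO CDA-HFD livers. *Usp18*, which removes ISG15 from proteins and dampens the interferon receptor, was at 1.33 ± 0.27 (adjusted p = 0.0282), and *Znfx1*, a helicase that senses viral RNA, at 0.78 ± 0.16 (adjusted p = 0.0290). *Usp18* and *Znfx1* passed in 9 and 6 of the 20 fits that left out 1 liver. *Mx2* (2.05, adjusted p = 0.0601) and *Stat2* (0.68, adjusted p = 0.0712) did not pass with all livers. Without liver 5 their adjusted p values were 0.00322 and 0.00148.

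Per liver, the mean over the 56 genes relative to WT WD was 0.30, 0.12, -0.24, 0.001 and -0.18 in WT WD and -0.30, -0.36, -0.20, -0.11 and -0.33 in KO WD livers. It was 0.73, 0.73, 0.83, 0.65 and 1.18 in WT CDA-HFD and 1.26, 1.48, 1.06, 1.80 and 0.94 in KO CDA-HFD livers. The WT and KO livers overlapped on both diets. The summed level of the 17 lymphocyte markers overlapped as well, at 21.1 to 35.1 CPM in WT CDA-HFD and 18.6 to 45.1 CPM in KO CDA-HFD livers. The sums of the macrophage markers are given above. The part of these cells was not tested.

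*Meg3*, an imprinted long noncoding RNA of the *Dlk1* locus (chr12:109541001-109571726), had an interaction of 2.29 ± 0.36 (adjusted p = 0.00704). It was near absent on WD, at 0.549, 0.688, 0.832, 1.19 and 0.803 CPM in WT and 1.01, 0.545, 0.839, 1.44 and 1.10 CPM in KO livers. On CDA-HFD WT livers had 46.1, 47.5, 43.3, 27.9 and 31.2 CPM and KO livers 216, 190, 274, 286 and 215 CPM. Every KO CDA-HFD liver was above every WT CDA-HFD liver, liver 5 included, and the WD groups overlapped. It was 1 of 10 imprinted and fetal liver genes tested, with a list median of -0.33. The other 9 did not pass with all livers. Without liver 5, 3 passed with a lower interaction (5.71% of all genes did).

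*Gpc1*, a heparan sulfate proteoglycan of the cell surface (chr1:92831645-92860779), differed mainly on WD. Its levels were 72.6, 91.6, 157, 158 and 158 CPM in WT WD livers and 25.3, 34.3, 52.8, 14.3 and 53.6 CPM in KO WD livers. On CDA-HFD they were 67.6, 75.7, 73.6, 70.4 and 75.5 CPM in WT and 118, 133, 116, 72.9 and 70.6 CPM in KO livers. KO livers were below all others on WD, and on CDA-HFD KO livers 4 and 5 lay within the WT range. The KO effect was -1.82 on WD (adjusted p = 0.0139) and 0.49 on CDA-HFD (adjusted p = 0.214), and the interaction was 2.32 ± 0.41 (adjusted p = 0.0148). It was 1 of 6 genes with a higher interaction whose KO effect was larger in size on WD.

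*Cyp2d12*, a cytochrome P450 of family 2 (chr15:82555072-82560403), was read at 0.784, 0.946, 0.908, 0.694 and 0.876 CPM in WT WD and 0.920, 1.63, 1.49, 1.14 and 1.10 CPM in KO WD livers. On CDA-HFD WT livers had 1.84, 1.27, 2.04, 0.873 and 1.57 CPM and KO livers 9.48, 7.16, 8.98, 10.2 and 17.3 CPM. The KO CDA-HFD livers were above all others, and liver 5 was the highest of them. The interaction was 2.22 ± 0.38 (adjusted p = 0.0114), and *Cyp2d* genes are near-identical neighbors, so its reads are uncertain. *Cyp26b1*, which degrades retinoic acid (chr6:84571414-84593908), was at 33.9, 34.8, 28.8, 34.4 and 21.5 CPM in WT WD and at 32.6, 26.5, 26.7, 10.9 and 18.2 CPM in KO WD livers. On CDA-HFD it was at 9.72, 5.50, 5.80, 8.33 and 6.75 CPM in WT and 8.92, 25.7, 19.8, 48.8 and 18.6 CPM in KO livers. KO liver 1 overlapped the WT livers on CDA-HFD and the other 4 were above them. Its interaction was 2.17 ± 0.47 (adjusted p = 0.0431) and passed in 4 of the 20 fits that left out 1 liver.

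*Aqp4*, a water channel, had the largest interaction of the named genes past the threshold at 2.68 ± 0.59 (adjusted p = 0.0431). It was at 11.5, 16.5, 61.1, 51.5 and 32.6 CPM in WT WD and 12.5, 11.4, 16.6, 19.4 and 10.7 CPM in KO WD livers, and at 11.95, 33.9, 15.5, 15.2 and 18.8 CPM in WT CDA-HFD and 48.3, 35.9, 87.3, 56.6 and 21.0 CPM in KO CDA-HFD livers. The groups overlapped on both diets, through WT WD livers 1 and 2 and KO CDA-HFD liver 5. It passed in 4 of the 20 fits that left out 1 liver.

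With all livers, genes of hepatocyte metabolism were seldom members one by one, although most of their lists lay above 0. Of 32 genes of the urea cycle and amino acid catabolism, 31 were above 0 with a median of 0.78, and 1 passed. This was *Prodh*, the first enzyme of proline breakdown, at 1.24 ± 0.21 (adjusted p = 0.0107), with 181 to 274, 164 to 257, 78.8 to 101.2 and 171 to 283 CPM in WT WD, KO WD, WT CDA-HFD and KO CDA-HFD livers. WT CDA-HFD livers were below the other 15, which overlapped. Of 22 lipid droplet and triglyceride enzymes, 19 were above 0 with a median of 0.64, and *Lipe*, the hormone-sensitive lipase that cleaves diacylglycerol, passed at 0.99 ± 0.18 (adjusted p = 0.0172), with 26.0 to 31.1, 20.9 to 28.5, 8.26 to 11.98 and 13.6 to 20.9 CPM in the same groups. Of 24 bile acid genes, 23 were above 0 with a median of 0.47, and *Abcc3*, a bile salt exporter of the basolateral membrane, passed at 0.70 ± 0.16 (adjusted p = 0.0475) and did so in 2 of the 20 fits without 1 liver. Of 35 cytochrome P450 genes of families 1 to 3, 32 were above 0 with a median of 0.71, and *Cyp2d12* passed. Without KO CDA-HFD liver 5, 16 of the urea cycle and amino acid list passed, 5 of the lipid droplet list, 4 of the bile acid list and 8 of the P450 list, all with a higher interaction. Over all genes, 6.17% did.

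Fatty acid oxidation, the process in which mitochondria burn fat, had 26 of 26 genes above 0, between 0.27 and 0.78 with a median of 0.39, and 0 passed. Its KO effects were 0.13 on WD, where 0 of 26 passed, and 0.58 on CDA-HFD, where 22 rose (13.4% of all genes did). A call on one diet and none on the other is not a call of the difference. Without KO CDA-HFD liver 5, 8 of the 26 passed with a higher interaction, against 6.17% of all genes. The member with the smallest p was *Acsm1*, a medium-chain acyl-CoA synthetase, at 0.78 ± 0.25 (adjusted p = 0.166). Of 36 peroxisomal genes 32 were above 0 with a median of 0.34, of 19 PPARα targets 12 were above 0 with a median of 0.24, and of 37 respiratory chain genes 29 were above 0 with a median of 0.16, each with 0 calls with all livers and 12, 3 and 9 higher calls without liver 5. *Ppara*, the nuclear receptor of fatty acid oxidation, had an interaction of 0.67 ± 0.27 (adjusted p = 0.249).

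Other lists of lipid metabolism gave the same kind of result. De novo lipogenesis, phosphatidylcholine synthesis and methyl supply, VLDL and apolipoproteins, and cholesterol synthesis had medians of 0.35, 0.49, 0.45 and 0.28 and 0 calls each among 18, 25, 16 and 25 genes with all livers. Without liver 5 the higher calls numbered 1, 7, 5 and 3 and the lower calls 1, 2, 0 and 0. Over all genes, 6.17% passed in the higher and 5.71% in the lower direction in that fit. *Chpt1*, which makes phosphatidylcholine from diacylglycerol, came nearest at 0.89 ± 0.21 (adjusted p = 0.0550). *Scd1*, the desaturase that makes monounsaturated fatty acids, was at -3.00 ± 0.85 (adjusted p = 0.116). *Sqle*, an enzyme of cholesterol synthesis, was at 1.65 ± 0.47 (adjusted p = 0.117), with a KO effect of -1.69 on WD. The other CIDE genes, *Cidea* and *Cidec*, were at 1.40 ± 2.01 and 0.62 ± 0.49 (adjusted p = 0.771 and 0.574), so their precision allows large differences.

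Lists of detoxification, sugar metabolism and hormonal patterns also had medians above 0, with 0 calls with all livers. The medians were 0.60 for 38 phase II conjugation enzymes, 0.61 for 15 glucose and fructose enzymes, 0.99 for 15 male-biased and 0.33 for 8 female-biased liver genes, 0.20 for 16 genes of growth hormone and insulin signaling and 0.17 for 18 clock genes. Without liver 5, 12 phase II, 8 glucose and fructose, 3 male-biased and 3 clock genes passed with a higher interaction (6.17% of all genes did). With a lower one, 2 clock and 2 growth hormone and insulin genes passed (5.71% of all genes did). Among stress lists, the 29 genes of the integrated stress and unfolded protein response had a median of -0.07, 22 NRF2 targets 0.25, 14 p53 targets 0.04 and 24 acute phase proteins 0.19, with 0 calls in each with all livers and 0 to 2 without liver 5. The cell cycle list was lower in KO livers on both diets, with median KO effects of -0.98 on WD and -0.73 on CDA-HFD. It had a median interaction of 0.23 and 0 calls among 24 genes. The p53 (-0.22 and -0.34), NRF2 (-0.25 and -0.02) and acute phase (-0.29 and -0.04) lists also had medians below 0 on both diets, of smaller size.

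**Figure D4:**
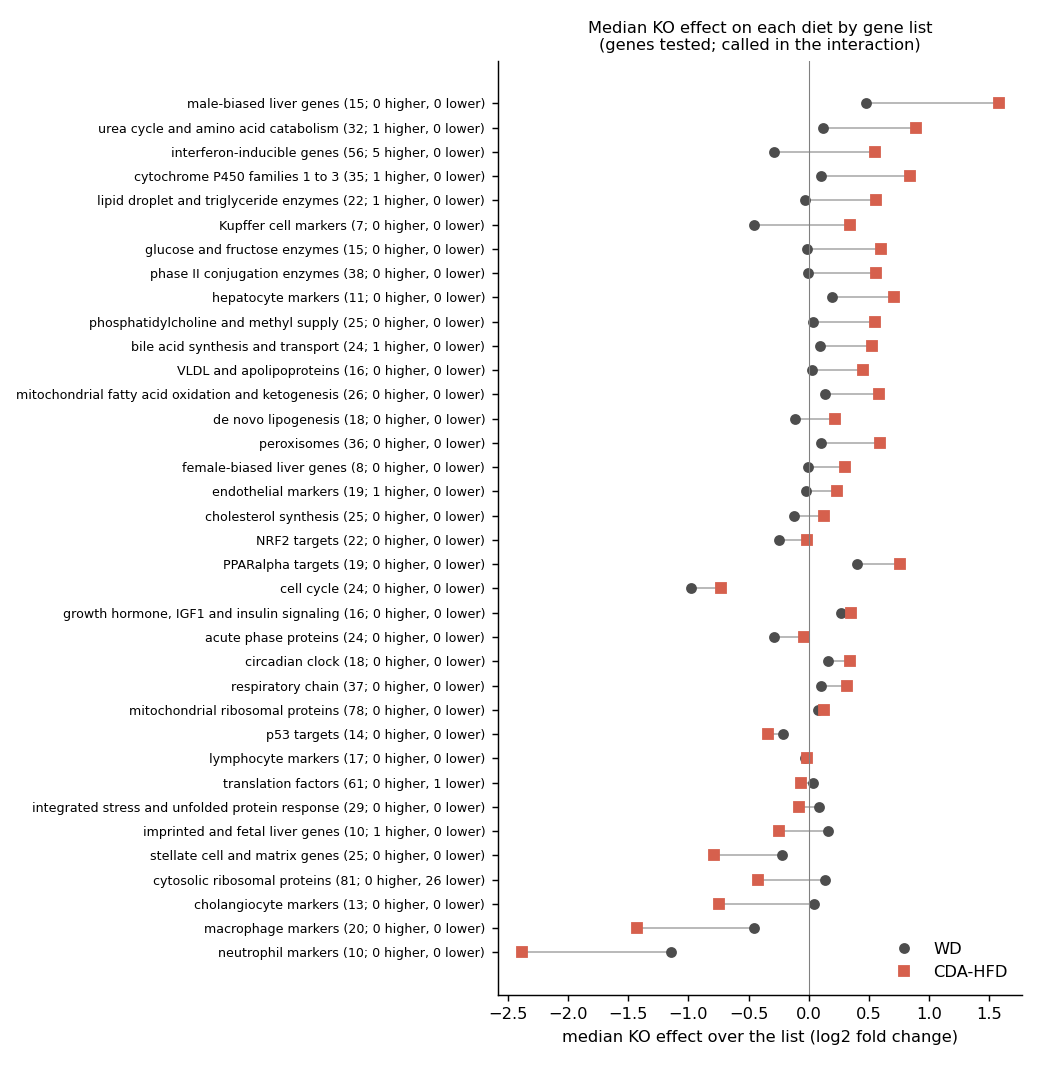
Median KO effect on WD (circles) and on CDA-HFD (squares) for 36 gene lists (x axis, log2 fold change), ordered by median interaction, with the genes tested and the interaction calls of each list in parentheses. Most metabolic lists move right from WD to CDA-HFD with 0 or 1 call with all livers, and the cytosolic ribosomal proteins move left with 26 of 81 called.

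Further members with a higher interaction belonged to transport and signaling. *Slc16a10*, a transporter of aromatic amino acids, was at 1.10 ± 0.22 (adjusted p = 0.0248), *Slc25a48*, a mitochondrial carrier linked to choline import, at 1.25 ± 0.28 (adjusted p = 0.0475), and *Adora1*, an adenosine receptor, at 1.15 ± 0.21 (adjusted p = 0.0166). In all 3, KO CDA-HFD livers were above all WT CDA-HFD livers, and the WD groups overlapped. *Slc25a48* passed in 5 of the 20 fits without 1 liver. *Wnt2*, a ligand that endothelial cells near the central vein supply to hepatocytes, was at 1.28 ± 0.25 (adjusted p = 0.0240) and was the only 1 of 19 endothelial markers to pass with all livers (7 higher and 1 lower without liver 5), with 4.66 to 6.90 CPM in KO CDA-HFD and 2.69 to 4.004 CPM in WT CDA-HFD livers. Over all genes, 6.17% passed in the higher and 5.71% in the lower direction without liver 5. The summed level of the endothelial list was 1028 to 1439 CPM in KO CDA-HFD and 1040 to 1159 CPM in WT CDA-HFD livers. *Xdh*, which forms uric acid and was singled out after its value was seen, had the lowest adjusted p of the higher members, 0.00170, at 0.90 ± 0.12. Its KO CDA-HFD livers at 504 to 559 CPM stood above all others at 279 to 386 CPM.

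The remaining cell type lists had 0 calls with all livers. Without liver 5, 2 hepatocyte markers and 1 Kupffer cell marker passed with a higher interaction (6.17% of all genes did). The 11 hepatocyte markers had a median interaction of 0.59 and summed to 57000 to 99960 CPM in WT WD, 69890 to 87120 in KO WD, 32080 to 70550 in WT CDA-HFD and 35100 to 101600 in KO CDA-HFD livers, so these markers were abundant in every group. The 7 Kupffer cell markers were all above 0 with a median of 0.61. Their member *Cd163*, a scavenger receptor, was at 0.855 CPM on average in WT CDA-HFD and 14.6 CPM in KO CDA-HFD livers, where liver 5 had 0.60 CPM, and its interaction of 4.14 ± 0.94 had an adjusted p of 0.0508. The 10 neutrophil markers tested had a median of -1.28 and the 17 lymphocyte markers a median of 0.02.

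The number of members depended on single livers in both directions. Leaving out WT CDA-HFD liver 3 left 36 calls, KO CDA-HFD liver 3 left 35, WT WD liver 4 left 36 and KO CDA-HFD liver 1 left 38. Of 53 named genes past the threshold, 26 passed in all 20 fits without 1 liver, among them *Gbp10*, *Gbp6*, *Ifi27*, *Gpc1*, *Meg3*, *Cyp2d12*, *Prodh*, *Lipe*, *Esm1*, *Steap2*, *Mtus2*, *Rpl39* and *Rpl26*. The interaction of each of the 53 kept its sign in all of those fits. In a limma fit with sample quality weights, KO CDA-HFD liver 5 had the lowest weight at 0.208, against 0.535 to 2.13 in the other 19, and 2302 genes passed, the 99 members among them.

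**Figure D5:**
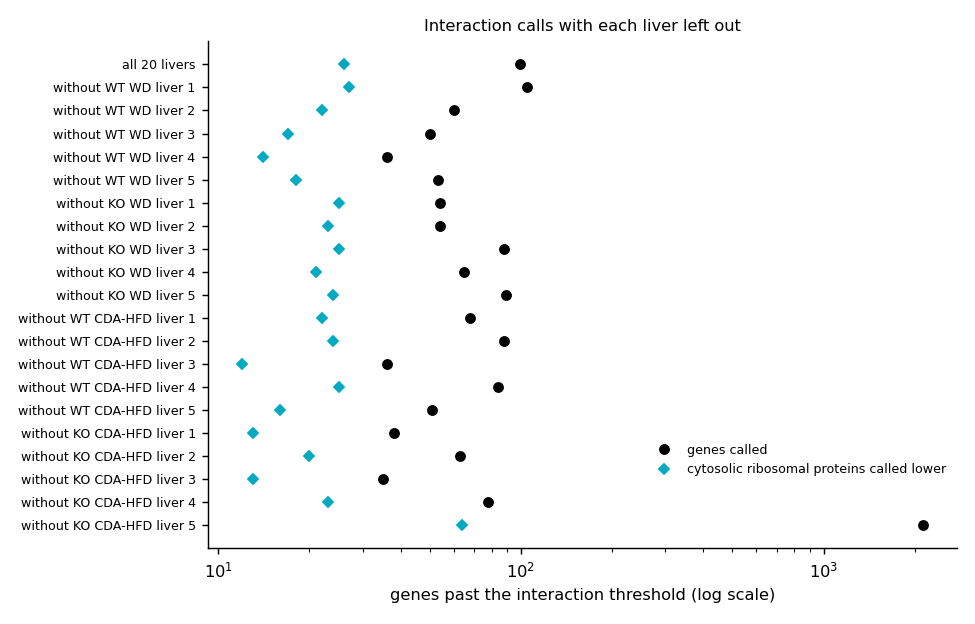
Number of genes past the interaction threshold (x axis, log scale) with all 20 livers and with each liver left out, and the cytosolic ribosomal proteins among them that were lower. All fits but the one without KO CDA-HFD liver 5, with 2138 calls, lie between 35 and 105, and between 12 and 64 ribosomal protein genes were called lower in every fit.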

How the data were processed

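RNA-seq of 20 mouse livers gave 1 table of read counts per gene symbol. The authors deposited these raw counts without normalization, and they are whole numbers. The submitters' processing notes name the mm10 build, while the aligner and the counting program are not given in the sources used here. The library kit is Nugen Ovation (single-end) in the study's methods and a directional NEBNext kit in the labels, so strand-specific counting is not known. Of all reads tallied per liver, the 5 entries that name no gene included 20.8% to 28.8% outside counted features, 0.800% to 1.03% on more than 1 gene and 18.0% to 28.7% aligned to more than 1 place, and they were left out.

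Groups came from the labels' vector and diet. The labels do not say that the 5 livers of a group came from separate mice, so p-values measure the spread between these samples. Counts were fitted in R 4.3.3 with edgeR 4.0.16 (filterByExpr, TMM scaling, quasi-likelihood F test) as 4 group means over all 20 livers, and 17804 of 50559 genes were tested. The KO effects, diet effects and the interaction are contrasts of this fit, with Benjamini-Hochberg adjustment over all genes tested at 0.05. Values are TMM-scaled CPM, and log2 CPM used a prior count of 2. The code was tested on simulated data. No set test was run. A few genes that were tested are not reported here by name.

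Same-numbered livers were not taken as pairs, since nothing in the labels says that a number marks a shared litter or day. Lists of ribosomal proteins, translation factors and interferon-inducible genes were compiled after the called genes were seen. The other 32 lists were chosen by topic, and all members and lists were chosen with earlier results of these data known. Named genes were *Cideb*, *Nop9*, *Cidea*, *Cidec* and *Ppara*. To these were added the 14 called genes with the largest and the 14 with the smallest interaction that averaged 1 or more in log2 CPM and had no predicted or clone name. For each list the called members or the member with the smallest p were named too. Positions come from the GRCm38 annotation and start sequences from RefSeq (GRCm38.p6), which had entries for 12987 tested genes. Alternatives used DESeq2 1.42.0 and limma 3.58.1, and figures were drawn with matplotlib 3.10.9 in Python 3.11.15.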

Additional observations from a re-analysis of the deposited data

Results flagged for a closer look

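Of 232 groups of 5 livers examined (56 named genes and the 2 list means, in 4 groups each), 8 had 1 liver further from its neighbor than the critical share of 0.71 of the group's range. Chance flags about 1 in 20 such groups. KO CDA-HFD liver 5 accounted for 6 of the 8. It was the lowest of its group in *Ifi27* (100.4 CPM against 140.3 to 154.0 in the other 4 livers), *Slc16a10* (169.4 against 257.1 to 273.6) and *Ppara* (293.5 against 528.4 to 609.8). It was the highest in *Rps20* (56.04 CPM against 44.2 to 47.2), *Nrp2* (41.1 against 31.6 to 34.1) and *Rps27a* (49.4 against 34.4 to 35.5). The other flags were in *Rpl6*, in KO WD liver 3 (88.4 CPM against 65.8 to 71.0) and in WT CDA-HFD liver 1 (85.5 against 73.6 to 76.8).

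The KO effect differed between the diets by edgeR's interaction test in 53 named genes, 17 with a higher and 36 with a lower value on CDA-HFD, of which 51 are given singly here. The higher interactions, as log2 fold changes, were those of *Aqp4* (2.68), *Gbp10* (2.35), *Gpc1* (2.32), *Meg3* (2.29), *Cyp2d12* (2.22), *Cyp26b1* (2.17), *Gbp6* (1.49), *Usp18* (1.33), *Wnt2* (1.28), *Slc25a48* (1.25), *Prodh* (1.24), *Ifi27* (1.20), *Adora1* (1.15), *Slc16a10* (1.10), *Lipe* (0.985), *Znfx1* (0.778) and *Abcc3* (0.70). Outside the ribosome, the lower ones were those of *Esm1* (-3.38), *Mtus2* (-2.71), *Steap2* (-1.72), *Qpct* (-1.26), *Gt(ROSA)26Sor* (-1.09), *Pfdn4* (-1.08), *Pcdh17* (-0.979), *Scarna13* (-0.957), *Nrp2* (-0.943) and *Eif3m* (-0.538).

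In the large ribosomal subunit the interactions were -1.35 for *Rpl39*, -0.978 for *Rpl26*, -0.874 for *Rpl12*, -0.80 for *Rpl32*, -0.745 for *Rpl27a*, -0.744 for *Rpl17*, -0.665 for *Rpl38*, -0.66 for *Rpl13*, -0.601 for *Rpl35a*, -0.582 for *Rpl7*, -0.572 for *Rpl6* and -0.509 for *Rplp0*. In the small subunit they were -1.26 for *Rps27*, -1.16 for *Rps27a*, -0.845 for *Rps12*, -0.828 for *Rps15a*, -0.783 for *Rps24*, -0.75 for *Rps3a1*, -0.685 for *Rps29*, -0.663 for *Rps25*, -0.642 for *Rps13*, -0.586 for *Rps15*, -0.552 for *Rps20* and -0.547 for *Rps26*. Many ribosomal protein genes have near-identical pseudogenes, and the part of reads aligned to more than 1 place in these values was not tested.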

How the results depend on the processing

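Against 99 interaction calls (59 higher, 40 lower), library size alone gave 44 (18 and 26), no filter on low counts 52 (29 and 23), DESeq2 434 (280 and 154) and limma voom with quality weights 2302 (1330 and 972). Library size alone moved the median interaction of all genes from 0.02 to -0.15 and the share of lower calls from 40.4% to 59.1%; relative to that shift the ribosomal median of -0.74 is close to the -0.58 of TMM. Fits without 1 liver gave 35 to 2138 calls (15 to 1110 higher, 18 to 1028 lower), 2268 to 7268 for the KO effect on CDA-HFD and 4 to 81 for that on WD, the totals lowest without KO CDA-HFD liver 3 and highest without liver 5 (on WD, KO liver 2 and WT liver 3), the fewest higher calls without WT WD liver 4 and the fewest lower ones without WT CDA-HFD liver 3. The 10 livers of a diet alone gave 2664 and 12 calls. RLE size factors (81), at least 10 counts in every library (103) and removal of length and GC trends (96, added after seeing the data) stayed within 1.5 times. A replicate block across the 4 groups gave 63 calls (33 higher) and one within each diet 8 (2 higher, 6 lower). Residuals of same-numbered livers correlated between -0.367 and 0.347, and 6 of 20 livers correlated best with their own number. With 5 livers a group, these values cannot decide whether a number marks a shared litter or day. No named call reversed. Of uncalled named genes, *Mmp9* ranged from -1.499 to 0.12 over fits without 1 liver, reversed without KO WD liver 5, and *Scd1* on the linear scale, where the difference of CPM differences was 7013. The causes were not tested. Depth limited genes under about 1 CPM.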
